A study of Mus musculus with 5 samples.

Results

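Cytokine receptors, the Jak kinases and Stat factors that carry their signals, and the Socs and Pias inhibitors were followed in sorted mature CD8 single-positive thymocytes of mice. The set holds 44 genes listed by name, and all 44 had a row among the 35976 genes counted. Bulk RNA-seq covered 5 libraries in 2 groups: 2 libraries from Runx3 +/+ (wild-type) mice and 3 from Runx3 +/WRPW mice, heterozygous for an allele named WRPW. Neither group has another allele or treatment in the labels, and the sources used here give neither age nor strain. Whether each library stands for its own animal is also not stated, and the p-values may therefore reflect technical spread between libraries only. The comparison asked how transcript levels differ when one copy of Runx3, a Runt-domain factor of the CD8 lineage, carries that allele.

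Most of these cytokines signal by one scheme. The receptor chains bring Jak kinases together, the kinases phosphorylate Stat proteins, and the Stats enter the nucleus and switch on genes, among them Socs genes whose products shut the receptor down again. In the thymus IL-7 is the best known of them: thymocytes that have passed selection regain the IL-7 receptor, and signals through the common gamma chain and Stat5 support survival and the CD8 fate, while Socs1 restrains them.

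Total counts ran from 15715242 to 43758550 per library. Runx3 +/WRPW library 2, the shallowest, had a count at 27414 genes against 17237 to 18967 in the other 4, and 7350 genes had counts in it alone against 105 to 244 genes for each of the others. Its deposited column bears only an aligner's name, and that of Runx3 +/+ library 2 bears the number 3; both were placed by the sample records. Cd8a stood at 2202 to 2635 CPM (counts scaled to library size by TMM) and Cd4 at no more than 5.36 CPM in the 5 libraries, which matches the labelled cell type. The 7 CD8 T cell markers summed to 6354 to 6426 CPM in Runx3 +/+ and 5445 to 6157 CPM in Runx3 +/WRPW, without overlap, and 1 of the 7, Cd3d, was lower. Runx3 did not pass the test (log2 difference 0.29 ± 0.14 (SE), edgeR adjusted p = 0.234), and since a count per gene does not show the allele, this is no check of the genotype labels. Summed markers of double-positive thymocytes were at 14.7 to 15.6 CPM in Runx3 +/+ and 3.82 to 6.10 CPM in Runx3 +/WRPW (5 markers, 1 of 3 tested lower), and those of B cells at 9.71 to 9.75 and 3.04 to 5.36 CPM (5 markers, 1 of 2 tested lower). The 4 regulatory T cell markers summed to 273 to 380 CPM and 236 to 398 CPM, but most of this was Ikzf2 and Tnfrsf18, which did not pass. Foxp3 was at 5.09 and 9.63 CPM in Runx3 +/+ and at 1.19, 0.685 and 0.414 CPM in Runx3 +/WRPW. It was 9.3-fold lower (edgeR adjusted p = 0.0123), and Ctla4 was 4.98-fold lower (edgeR adjusted p = 0.0156). Cd4, at 5.36 CPM, was highest in Runx3 +/+ library 2. The part of these cells in the results below was not tested, and in bulk RNA fewer cells of a type and less RNA per cell cannot be told apart.

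Of the 44 genes, 41 had enough reads to be tested. In Runx3 +/WRPW cells 9 of them were lower (Il2rg, Il21r, Il27ra, Ifnar1, Ifnar2, Ifngr2, Il17ra, Socs3 and Cish), 2 were higher (Ifngr1 and Socs1) and 30 did not pass (quasi-likelihood test of edgeR, adjusted p under 0.05). Those 11 make 26.8% of the tested members, beside 13.6% of all 13666 tested genes (6.24% higher and 7.33% lower). The members were chosen with earlier results of these data known, so these shares are a description and not a test. Every one of the 11 encodes a receptor chain or a Socs protein. None of the 13 Jak, Stat and Pias genes passed in edgeR; 3 of them (Tyk2, Stat3 and Stat5a) had an unadjusted p under 0.05, DESeq2 called 1 (Tyk2) and limma-voom 0. The members' median log2 difference was 0.03, that of all tested genes 0.02. The genotypes did not overlap in 26 of the 41 members, beside 48.5% of all tested genes. Without Runx3 +/WRPW library 2, 10 members were lower and 1 higher of 39 tested (28.2%, beside 10.8% of all 13303 genes tested in that fit).

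**Figure D1:**
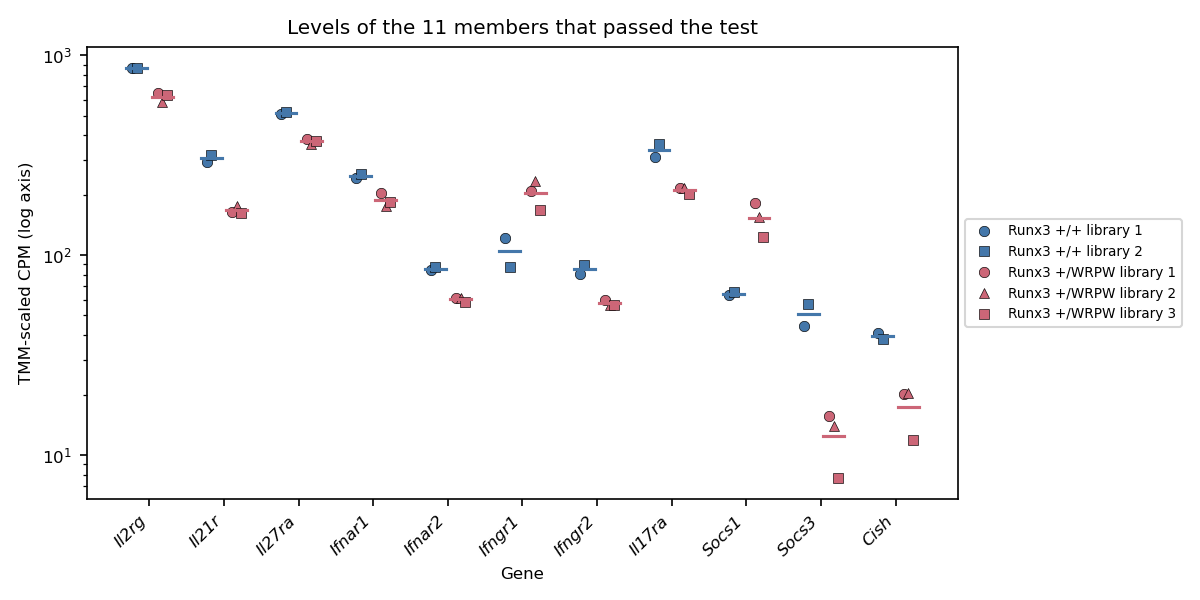
Level of each of the 11 members that passed the test, in TMM-scaled CPM (log axis), by gene. Each symbol is a library, lines are group means, blue is Runx3 +/+ and red Runx3 +/WRPW; in all 11 genes the libraries of the genotypes did not overlap, with red above blue only for Ifngr1 and Socs1.

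The promoters were read for letters known to be bound by the factors of this pathway, TGTGGT for Runx proteins and TTCNNNGAA for Stat proteins, on both strands, in the 250 bases before each start in RefSeq (GRCm38.p6). Of 33 members with a promoter in that table, 5 held the Runx letters (Il1rl1, Il21r, Il2rg, Il9r and Stat6). The Stat letters were held by 4 (Ifnar2, Il12rb2, Il7r and Socs3). Of 9999 tested genes with a promoter, 13.4% held the Runx letters and 7.33% the Stat letters. The 33 members include genes that were not tested, Il1rl1 and Il9r among them, so these shares are not set against the member numbers. Among 9 called members with a promoter, 2 held the Runx letters and 2 the Stat letters. Those 4 are shown, with the match in capitals, because the genes fell and the letters are there; a match is a description and not a site. Il2rg, at chrX:101268256-101268505 on the minus strand, and Ifnar2, at chr16:91372533-91372782 on the plus strand, are given whole. Il21r (chr7:125603384-125603413, plus strand) and Socs3 (chr11:117969501-117969530, minus strand) are given as the 30 bases around the match, since those windows lie partly (Il21r) or wholly (Socs3) inside the span of the gene.
Il2rg: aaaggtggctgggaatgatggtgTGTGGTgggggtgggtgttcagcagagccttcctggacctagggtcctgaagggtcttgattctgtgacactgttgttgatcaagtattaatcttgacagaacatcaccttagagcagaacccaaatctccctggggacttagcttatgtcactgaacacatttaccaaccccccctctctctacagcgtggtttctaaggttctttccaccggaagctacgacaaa
Il21r: ggggcactgtttACCACAtcccctccccac
Ifnar2: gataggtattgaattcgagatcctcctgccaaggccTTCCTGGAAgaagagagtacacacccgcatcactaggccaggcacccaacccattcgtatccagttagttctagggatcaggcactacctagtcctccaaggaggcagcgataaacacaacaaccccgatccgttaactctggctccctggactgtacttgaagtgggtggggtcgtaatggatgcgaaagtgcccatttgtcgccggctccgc
Socs3: gaaaccagccTTCTTAGAAgggaggggggg
Counted from the start, the Runx letters lie at positions -227 to -222 in Il2rg and, on the other strand, at -33 to -28 in Il21r. The Stat letters lie at -214 to -206 in Ifnar2 and at -154 to -146 in Socs3.

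Among receptors of the common gamma chain family, the shared chain and the IL-21 chain fell. These were 2 of 5 tested (40%, beside 13.6% of all tested genes). Il2rg (chromosome X, 101264385 to 101268255, mm10) encodes the common gamma chain, which completes the receptors for IL-2, IL-4, IL-7, IL-9, IL-15 and IL-21. Both wild-type libraries, at 869.6 and 864.9 CPM, exceeded the heterozygous ones, at 649.9, 582 and 634 CPM. The groups did not overlap, and the difference was 1.39-fold (log2 difference -0.48 ± 0.07 (SE), edgeR adjusted p = 0.0108). Il21r (chromosome 7, 125603252 to 125634397), the chain that binds IL-21, went from 292 and 318 CPM to 164, 177 and 162 CPM. The difference was 1.82-fold (log2 -0.86 ± 0.07 (SE), edgeR adjusted p = 0.00215), and Il21r was the only one of the 11 called members that passed in each of the 5 fits that left out 1 library. The call of Il2rg was lost without Runx3 +/+ library 1 (adjusted p = 0.112) and without Runx3 +/+ library 2 (adjusted p = 0.142), with log2 differences of -0.52 to -0.44 over the 5 fits. A GENCODE model without a row of its own, Gm20489, shares 30.5% of the exon bases of Il2rg on the same strand.

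Il7r, the IL-7 binding chain that keeps naive T cells alive, went the other way in level without passing. It stood at 383 and 226 CPM in Runx3 +/+ and at 530.3, 460.4 and 544 CPM in Runx3 +/WRPW. The groups did not overlap, but the wild-type libraries lay far apart, and the log2 difference of 0.75 (95% interval 0.21 to 1.29) had an edgeR adjusted p = 0.0786. Without Runx3 +/+ library 1 it passed (log2 1.15, adjusted p = 0.0478), and without Runx3 +/+ library 2 it was 0.41 (adjusted p = 0.307). Per kilobase of exon, Il7r was at 0.226 and 0.134 of the Il2rg level in Runx3 +/+ and at 0.418, 0.405 and 0.439 of it in Runx3 +/WRPW. Il4ra, the IL-4 chain, was at 184 and 159 CPM and at 129, 161 and 110.2 CPM (log2 -0.36, 95% interval -0.76 to 0.03, adjusted p = 0.196), and it passed without Runx3 +/WRPW library 2 (log2 -0.52, adjusted p = 0.047). Il2ra, the high-affinity IL-2 chain found on activated and regulatory T cells, was low, at 3.87 ± 0.123 CPM (SD, n = 2) and 5.05 ± 1.24 CPM (SD, n = 3), and did not pass.

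Receptors built on gp130, the chain shared by IL-6, IL-27 and related cytokines, and the IL-12 chains gave 1 call among 6 tested. This share of 16.7% is near the 13.6% of all tested genes. Il27ra (chromosome 8, 84030286 to 84042600), the ligand-binding chain for IL-27, was at 507 and 519 CPM in Runx3 +/+ and at 381, 359 and 374 CPM in Runx3 +/WRPW. That is a 1.38-fold difference with no overlap (log2 -0.46 ± 0.06 (SE), edgeR adjusted p = 0.00782). Its call was lost without Runx3 +/+ library 1 (adjusted p = 0.0777) or library 2 (adjusted p = 0.115). Its partner Il6st, which encodes gp130, was at 434 ± 8.73 CPM (SD, n = 2) and 457 ± 44.2 CPM (SD, n = 3), and the 95% interval of the log2 difference, -0.15 to 0.30, included 0. Per kilobase of exon, Il27ra stood at 3.65 and 3.85 times the Il6st level in Runx3 +/+ and at 2.91, 2.53 and 2.36 times in Runx3 +/WRPW.

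Il6ra (chromosome 3, 89869324 to 89913196), the IL-6 binding chain of naive T cells, was at 44.2 and 69.5 CPM in Runx3 +/+ and at 36.1, 26.5 and 15.9 CPM in Runx3 +/WRPW. The log2 difference of -1.11 (95% interval -1.95 to -0.27) did not pass (edgeR adjusted p = 0.0877). The genotypes did not overlap, and each was widely spread. Il12rb1, which IL-12 and IL-23 share, was at 14.8 ± 1.06 and 13.7 ± 5.52 CPM (SD, n = 2 and n = 3). Il12rb2, which pairs with it for IL-12, was at 4.76 ± 0.797 and 6.72 ± 1.13 CPM, but 40.0% of its exon bases lie opposite exons of the far more abundant Serbp1, whose reads could not be told apart if the counting ignored strand.

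The interferon and IL-10 receptors held 4 of the 11 calls, among 6 tested genes (66.7%, beside 13.6% of all tested genes). Both chains of the type I interferon receptor fell. Ifnar1 (chromosome 16, 91485032 to 91510523) was at 244 and 256 CPM in Runx3 +/+ and at 205, 177 and 185 CPM in Runx3 +/WRPW (1.32-fold lower, edgeR adjusted p = 0.028). Ifnar2 (chromosome 16, 91372783 to 91405589) was at 84.2 and 87.0 CPM and at 61.2, 61.3 and 58.5 CPM (1.42-fold lower, adjusted p = 0.0051). The ratio of these chains per kilobase stayed between 1.62 and 1.88 in the 5 libraries, and the genotypes overlapped in it. The call of Ifnar1 was lost without Runx3 +/+ library 1 (adjusted p = 0.15), Runx3 +/+ library 2 (adjusted p = 0.277) or Runx3 +/WRPW library 3 (adjusted p = 0.0805), and that of Ifnar2 without Runx3 +/+ library 2 (adjusted p = 0.071).

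The interferon-gamma receptor chains moved in opposite directions. Ifngr1 (chromosome 10, 19591949 to 19610229), which binds the cytokine, was at 123 and 87 CPM in Runx3 +/+ and at 209, 235 and 169 CPM in Runx3 +/WRPW, so that every heterozygous library was above both wild-type ones (1.95-fold higher, log2 0.96 ± 0.19 (SE), edgeR adjusted p = 0.0273). Ifngr2 (chromosome 16, 91547059 to 91564007), the chain needed to pass the signal on, was at 80.6 and 89.9 CPM and at 59.8, 56.1 and 56.5 CPM (1.48-fold lower, log2 -0.57 ± 0.07 (SE), adjusted p = 0.00701). Per kilobase of exon, Ifngr1 stood at 2.02 and 1.28 times the Ifngr2 level in Runx3 +/+ and at 4.63, 5.55 and 3.95 times in Runx3 +/WRPW. Among the 5 fits that left out 1 library, the call of Ifngr1 was kept only without Runx3 +/WRPW library 3; its adjusted p was 0.0737 and 0.228 without Runx3 +/+ libraries 1 and 2, 0.0779 without Runx3 +/WRPW library 1 and 0.0538 without library 2. That of Ifngr2 was lost without Runx3 +/+ library 2 (adjusted p = 0.0954).

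Il10rb, a chain shared by IL-10 and interferon-lambda receptors, lies between these genes on chromosome 16 (91406157 to 91425834) and did not fall with them. It was at 41.6 and 45.7 CPM in Runx3 +/+ and at 51.2, 54.3 and 49 CPM in Runx3 +/WRPW (log2 0.24, 95% interval 0.05 to 0.43, edgeR adjusted p = 0.101). The order along the chromosome is Ifnar2, Il10rb, Ifnar1 and Ifngr2, with gaps of 0.6, 59.2 and 36.5 kb. The 3 interferon receptor genes of that stretch were lower and the one between them was not. A further GENCODE model of the same strand, Gm21970, shares 9.5% and 14.9% of the exon bases of Ifnar2 and Il10rb. On chromosome 7, Il4ra and Il21r lie 23.8 kb apart, and of those Il21r alone passed. Il10ra, the IL-10 binding chain, was at 17 ± 3.54 and 21.4 ± 5.63 CPM (SD, n = 2 and n = 3) and did not pass.

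Il17ra was the one call among the IL-1 and IL-17 receptors, which signal through adaptors rather than Jak kinases. Of these, 3 were tested, so 33.3% were called, beside 13.6% of all tested genes. Il17ra (chromosome 6, 120463181 to 120483731), the chain common to the IL-17 receptors, was at 309 and 361 CPM in Runx3 +/+ and at 217, 217 and 204 CPM in Runx3 +/WRPW. The 3 heterozygous libraries lay close together and below both others (1.58-fold lower, log2 -0.66 ± 0.08 (SE), edgeR adjusted p = 0.00726), and the call was lost without Runx3 +/+ library 2 (adjusted p = 0.071). Il17rb, the IL-25 binding chain, was near 1.9 CPM, at 1.91 ± 0.332 and 1.86 ± 0.696 CPM (SD, n = 2 and n = 3).

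**Figure D2:**
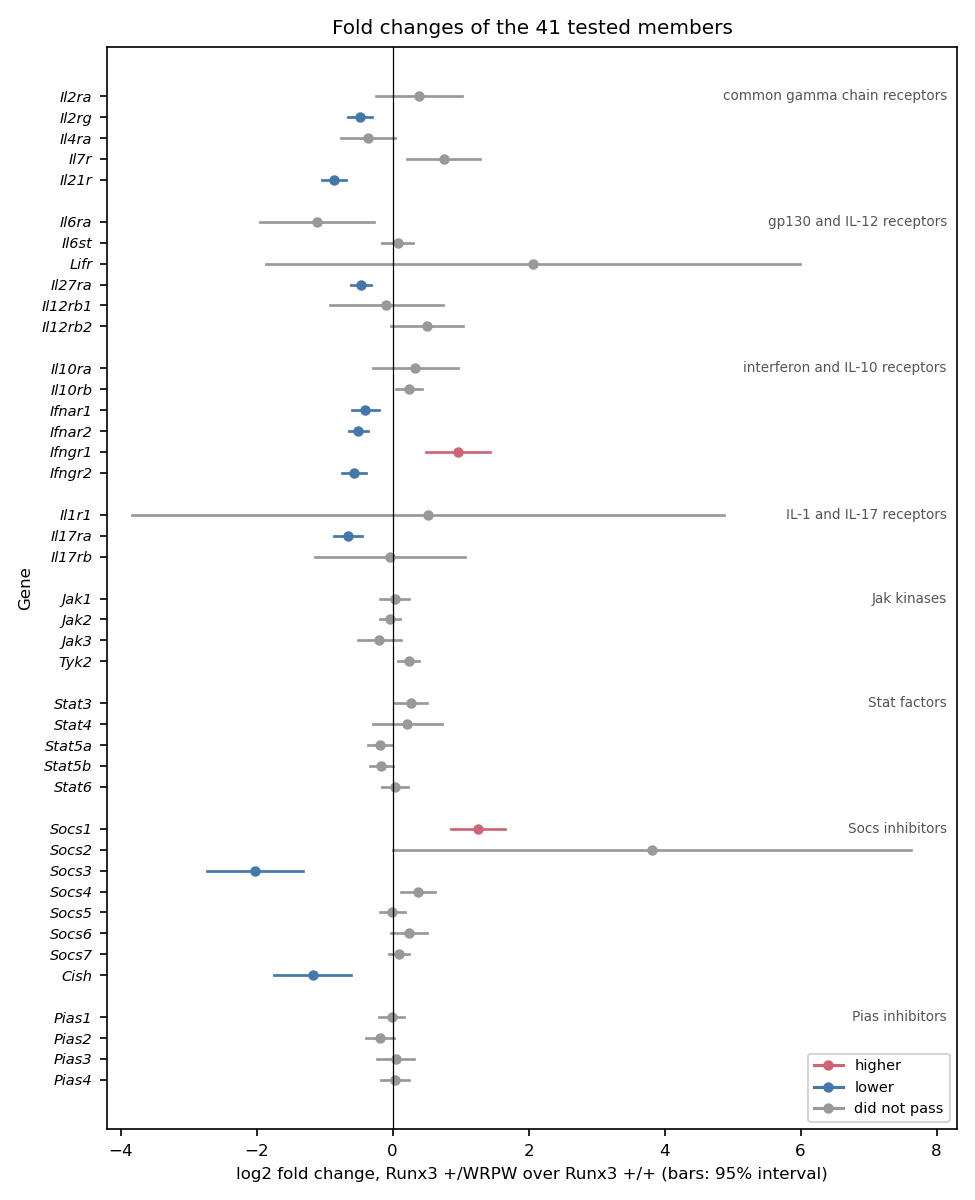
Log2 fold change of Runx3 +/WRPW over Runx3 +/+ for the 41 tested members, grouped by role, with 95% intervals from the edgeR fit. Blue and red mark the 9 lower and 2 higher genes; the Jak, Stat and Pias genes lie within -0.20 and 0.26, while Lifr, Il1r1 and Socs2 have intervals several units wide.

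The Jak kinases were well covered and did not pass. Jak1, which works with nearly all of these receptors, had the second highest level of the members per kilobase of exon after Il2rg, at 202 ± 21.7 CPM per kb (SD, n = 2) in Runx3 +/+ and 207 ± 9.72 CPM per kb (SD, n = 3) in Runx3 +/WRPW. Its log2 difference of 0.03 had a 95% interval of -0.18 to 0.24. Jak3, the kinase bound to the common gamma chain, was at 451 ± 82.7 and 393 ± 32.6 CPM (SD, n = 2 and n = 3; log2 -0.20, 95% interval -0.51 to 0.12). Jak2 was at 209 ± 3.87 and 204 ± 2.56 CPM (SD, n = 2 and n = 3), with an interval of -0.18 to 0.10. Tyk2, the kinase of Ifnar1 and Il12rb1, was at 141 and 135 CPM in Runx3 +/+ and at 168, 163 and 156 CPM in Runx3 +/WRPW. The groups did not overlap, and the log2 difference of 0.24 (95% interval 0.08 to 0.39) did not pass (edgeR adjusted p = 0.0615); it passed with upper-quartile factors (adjusted p = 0.0438), the stricter filter (adjusted p = 0.0469) and DESeq2 (adjusted p = 0.00691).

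The 5 Stat genes of the list did not pass either, and their log2 differences lay between -0.19 and 0.26. Stat6, which answers IL-4, had the highest level of them per kilobase, at 81.5 ± 2.96 and 83.2 ± 5.44 CPM per kb (SD, n = 2 and n = 3), and a 95% interval of -0.16 to 0.22. Stat5b and Stat5a, the factors of IL-2 and IL-7 signals, had log2 differences of -0.16 (95% interval -0.34 to 0.01) and -0.19 (-0.37 to -0.01). These neighbours on chromosome 11 are close copies, so reads they share may have been left out or split. Stat3, the factor of IL-6 and IL-21 signals, was at 220 and 219 CPM and at 297, 252 and 243 CPM (log2 0.26, adjusted p = 0.138). Stat4, the factor of IL-12 signals, overlapped between the genotypes, at 89 and 60.9 CPM and at 82.1, 106 and 73.9 CPM. The Pias genes, SUMO ligases first described as Stat inhibitors, had log2 differences between -0.18 and 0.04; the most abundant per kilobase, Pias2, was at 98.7 ± 2.59 and 86.8 ± 7.81 CPM (adjusted p = 0.218).

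Of the 8 tested Socs genes 3 were called (37.5%, beside 13.6% of all tested genes). They held the 3 largest log2 differences among the 11 calls and did not share a direction. Socs1 (chromosome 16, 10783808 to 10785536), whose product blocks Jak activity at gamma chain and interferon receptors, was at 63.2 and 65.4 CPM in Runx3 +/+ and at 182, 155 and 123 CPM in Runx3 +/WRPW. All 3 heterozygous libraries were well above both wild-type ones (2.39-fold higher, log2 1.25 ± 0.16 (SE), edgeR adjusted p = 0.00756). Socs3 (chromosome 11, 117966079 to 117970336), whose product binds gp130 and curbs IL-6 signals, was at 44.5 and 57.3 CPM and at 15.6, 14 and 7.68 CPM (4.07-fold lower, log2 -2.02 ± 0.29 (SE), adjusted p = 0.00972). Cish (chromosome 9, 107296659 to 107302784), a Stat5-induced inhibitor that occupies Stat5 docking sites, was at 41.1 and 38.1 CPM and at 20.2, 20.4 and 11.9 CPM (2.26-fold lower, log2 -1.18 ± 0.23 (SE), adjusted p = 0.0254). Runx3 +/WRPW library 3 had the lowest value of the 3 heterozygous libraries for each of Socs1, Socs3 and Cish.

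Per kilobase of exon, Socs1 stood at 1.41 and 1.14 times the Socs3 level in Runx3 +/+ and at 11.6, 11 and 15.9 times in Runx3 +/WRPW. Their calls were each lost without either of the wild-type libraries, with adjusted p of 0.106 and 0.132 for Socs1, 0.0664 and 0.132 for Socs3, and 0.162 and 0.194 for Cish, without Runx3 +/+ libraries 1 and 2 in turn. An antisense model and a pseudogene on the other strand overlap 7.5% and 4.1% of the exon bases of Cish. Of the other Socs genes, which act on growth factor and cytokine receptors, Socs4 was at 53.4 ± 1.67 and 69.0 ± 7.80 CPM (SD, n = 2 and n = 3; log2 0.37, edgeR adjusted p = 0.0656), and Socs5, Socs6 and Socs7 had log2 differences of -0.01, 0.24 and 0.10 without passing.

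**Figure D3:**
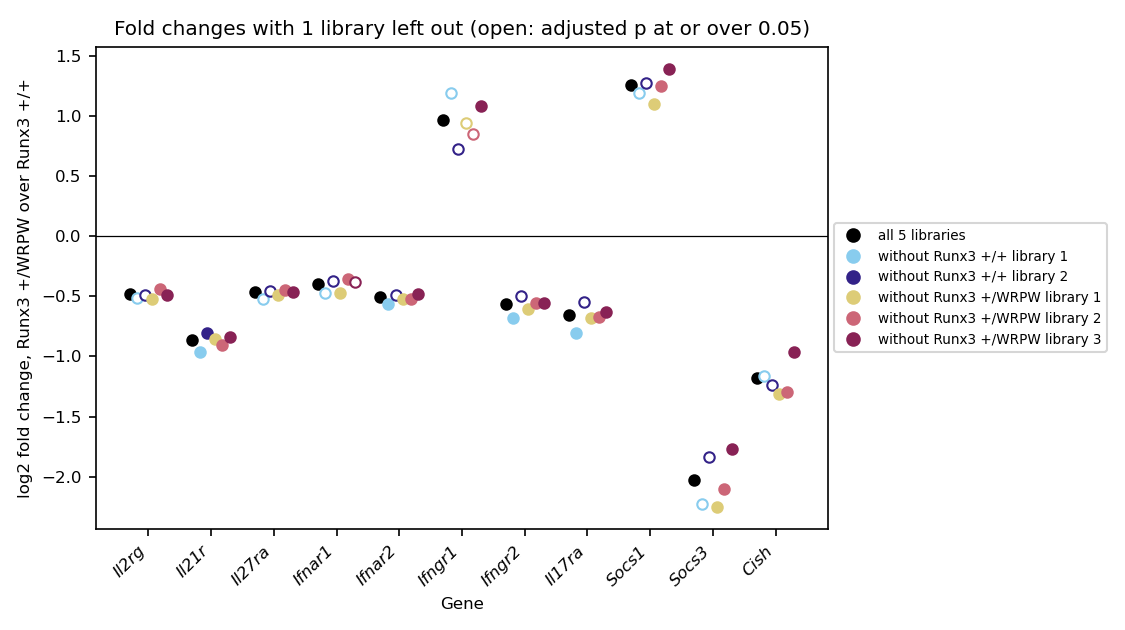
Log2 fold change of the 11 called members with all 5 libraries (black) and with each library left out (colours); open circles have an edgeR adjusted p of 0.05 or more. No point crosses 0, and the open circles come mostly from the fits without a Runx3 +/+ library.

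With a wild-type library left out, fewer calls passed. These fits leave 1 Runx3 +/+ library, and their filter kept more genes. It kept 18369 genes without Runx3 +/+ library 1 and 18169 without library 2, against 13666 with all 5 libraries. Their numbers of calls are therefore not set beside those of the other fits. Without Runx3 +/WRPW libraries 1, 2 and 3 in turn, 10 of the 11 calls were kept each time, and 5.71%, 10.8% and 6.97% of all tested genes were called. The 11 log2 differences kept their sign in the 5 fits.

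Of the members, 6 were close to silent, and most of their reads came from Runx3 +/WRPW library 2. Osmr, the oncostatin M receptor chain, had 64 reads in that library and 0 in the other 4. Il1rl1, the IL-33 receptor of regulatory and innate lymphocytes, had 24 there, 2 in Runx3 +/WRPW library 1 and 0 elsewhere, and Il9r, the IL-9 chain, had 14 there, 2 and 1 in the other heterozygous libraries and 0 in both wild-type ones. These 3 were not tested; a count of 0 allows up to 3 counts, which is 0.120 to 0.140 CPM in the Runx3 +/+ libraries, for counting error only.

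Lifr, the leukaemia inhibitory factor chain that pairs with gp130, had 12 and 17 reads in Runx3 +/+ and 10, 121 and 6 in Runx3 +/WRPW. Its log2 difference of 2.07 (95% interval -1.86 to 5.99, edgeR adjusted p = 0.454) turned to -1.31 (adjusted p = 0.141) without library 2. Socs2, an inhibitor of growth hormone signals, had 6 and 6 reads against 49, 159 and 7 (log2 3.82, adjusted p = 0.167), and Il1r1, the IL-1 receptor, 1 and 21 against 2, 32 and 1. Without Runx3 +/WRPW library 2, Socs2 and Il1r1 had too few reads to be tested. Summed markers of thymic stroma (19.2 CPM), dendritic cells (11.9 CPM), myeloid cells (11.15 CPM) and NK cells (2.12 CPM) were also highest in that library. The other marker lists were not highest there. Erythroid markers were at 0.623 CPM, against 0.846 CPM in Runx3 +/WRPW library 1. B cell markers were at 5.36 CPM, against 9.71 to 9.75 CPM in Runx3 +/+. Within the lists that were highest, the myeloid marker Lyz2 had 2 reads and the dendritic marker Itgax 0 in Runx3 +/WRPW library 2. The part of any of these cells in these counts was not tested.

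**Figure D4:**
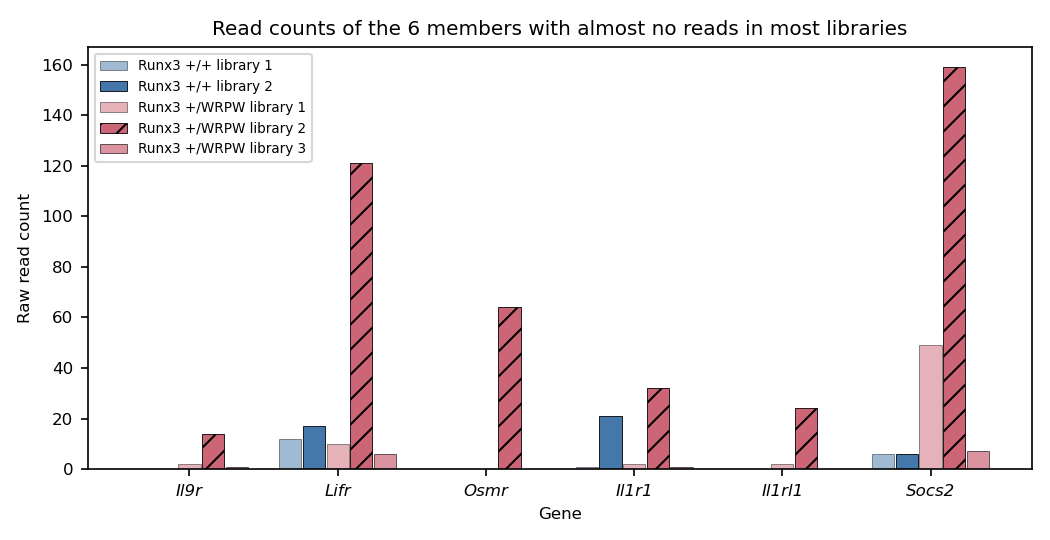
Raw read counts of the 6 members with few reads, by gene and library. The hatched bars are Runx3 +/WRPW library 2, which had the tallest bar for each of the 6 genes, from 14 reads for Il9r to 159 for Socs2.

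Beside the members, 84 other genes of the pathway were listed by role, and 47 were tested. Of these, 5 were higher and 5 lower, so that 21.3% were called, beside 13.6% of all tested genes, and 37 did not pass. Their median log2 difference was 0.07. These lists were also chosen with earlier results of these data known, so their share is a description and not a test. Cytokine genes themselves were almost silent, with 3 of 20 tested and none passing in edgeR (1, Osm, had an unadjusted p under 0.05). Osm, which encodes oncostatin M, was at 15.5 ± 1.92 and 12.2 ± 0.788 CPM (SD, n = 2 and n = 3; edgeR adjusted p = 0.127). Stat2, a factor of type I interferon signals, had a log2 difference of 0.01 (95% interval -0.24 to 0.26) and did not pass.

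Of 31 other cytokine receptors, 13 were tested, 2 were higher and 1 lower (23.1% called, beside 13.6% of all tested genes). Il18rap, the accessory chain of the IL-18 receptor, was at 2.01 and 2.4 CPM in Runx3 +/+ and at 27.3, 19.6 and 11.3 CPM in Runx3 +/WRPW (edgeR adjusted p = 0.00798). Csf2ra, the GM-CSF binding chain, was at 7.85 and 7.35 CPM and at 15.9, 22.9 and 16.5 CPM (2.41-fold higher, adjusted p = 0.0115), while Csf2rb, the chain it needs to signal, had no more than 7 reads in any library. Kit, the stem cell factor receptor of early progenitors, was at 23 and 17.8 CPM and at 8.62, 10.6 and 6.49 CPM (2.39-fold lower, adjusted p = 0.0186). Il2rb, the chain that IL-2 and IL-15 share, was at 252 and 300.0 CPM and at 360, 448 and 348 CPM without passing (log2 0.48, 95% interval 0.14 to 0.81, adjusted p = 0.0724). All 3 calls were lost without Runx3 +/+ library 1 (adjusted p = 0.114, 0.0952 and 0.132 for Il18rap, Csf2ra and Kit) and library 2 (0.14, 0.142 and 0.104), and that of Kit also without Runx3 +/WRPW library 1 (0.0611).

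Of 14 tested genes that Stat proteins are known to drive, 2 were higher and 3 lower (35.7% called, beside 13.6% of all tested genes). Bcl2, the survival factor that IL-7 sustains, was at 538 and 372 CPM in Runx3 +/+ and at 914, 1020 and 1032 CPM in Runx3 +/WRPW, and it passed in all 5 fits that left out a library (adjusted p from 0.0197 to 0.0487). Junb, an AP-1 subunit, was at 157 and 162 CPM and at 298, 271 and 277 CPM (1.76-fold higher, edgeR adjusted p = 0.00222). Pim2, a survival kinase, went from 107 and 146 CPM to 66, 58.2 and 55.1 CPM (2.11-fold lower, adjusted p = 0.0083), and the cyclin gene Ccnd3 was 1.5-fold and Bcl3, a nuclear IκB protein, 2.25-fold lower (adjusted p = 0.0183 and 0.0223).

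The calls of Junb (adjusted p = 0.052 and 0.0582), Ccnd3 (0.0957 and 0.187) and Bcl3 (0.051 and 0.2) were lost without Runx3 +/+ libraries 1 and 2, that of Bcl3 also without Runx3 +/WRPW library 3 (0.0717), and that of Pim2 without Runx3 +/+ library 2 (0.0728). Among 15 tested phosphatases and adaptors, 2 were called (13.3%, beside 13.6% of all tested genes). Ptpn6, the phosphatase SHP-1, was at 608 and 629 CPM and at 734, 771 and 829.6 CPM (1.26-fold higher, edgeR adjusted p = 0.0381). Usp18, an inhibitor of type I interferon receptor signals, was 1.3-fold lower (edgeR adjusted p = 0.0345). Neither kept its call in any fit with a library left out, where the adjusted p was 0.0712 to 0.341 for Ptpn6 and 0.0612 to 0.189 for Usp18.

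**Figure D5:**
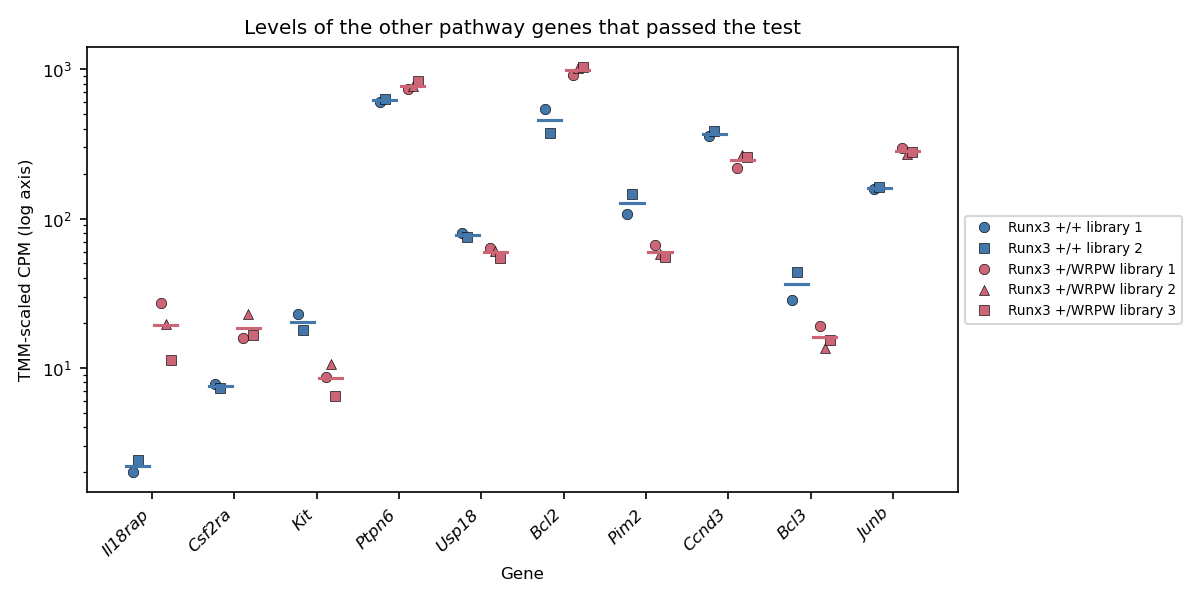
Level of the 10 other pathway genes that passed the test, in TMM-scaled CPM (log axis), by gene, with symbols for libraries and lines for group means. Red (Runx3 +/WRPW) lies above blue (Runx3 +/+) for Il18rap, Csf2ra, Ptpn6, Bcl2 and Junb and below it for Kit, Usp18, Pim2, Ccnd3 and Bcl3.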

How the data were processed

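RNA of sorted mature CD8 single-positive thymocytes was sequenced in 5 libraries, grouped by the genotype label; replicate numbers come from the titles. The authors deposited raw counts of reads per gene symbol with no normalization; HISAT2 2.2.1 and featureCounts 2.0.8, with cutadapt 4.0 and edgeR 3.36.0, are the tools and mm10 the build in the submitters' processing notes. No source used here gives the annotation or the strand and multi-mapping settings.

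Runx3 +/WRPW was compared with Runx3 +/+ in edgeR 4.0.16 (R 4.3.3; TMM, filterByExpr with a minimum count of 10, glmQLFit, glmQLFTest), with Benjamini-Hochberg adjusted p over all 13666 genes tested and a threshold of 0.05. Levels are TMM-scaled CPM; the standard error is the size of the log2 difference divided by the square root of F. Exon lengths and overlaps came from GENCODE M21 and coordinates and promoters from RefSeq, both GRCm38, which mm10 names; 33 of 44 members had a promoter. The members and lists were chosen with earlier results of these data known. Every member is accounted for. Those that passed were named with all values. Of the others, each group names those beyond 1 in log2 size and the highest per kilobase. Up to 4 called genes are named per pathway list. Bcl3, which passed but lay beyond the 4 of its list, was added after its value was seen. Some genes that did not pass were added in the same way.

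No pair of libraries agreed within sampling noise (chi-square per gene 14.2 or more). The pipeline was tested on simulated data. Alternatives were DESeq2 1.42.0, limma-voom (limma 3.58.1), factors by RLE or upper quartile, no filter, a stricter filter of 1 CPM, robust dispersion, a replicate block and each library left out; with 1 Runx3 +/+ library left, it is assumed to vary like the other genotype.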

Additional observations from a re-analysis of the deposited data

How the results depend on the processing

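The 11 calls among the members held with RLE factors, upper-quartile factors, DESeq2, limma-voom, the stricter filter and robust dispersion, and 9 held without a filter (Il2rg and Ifnar1 were lost, adjusted p = 0.0549 and 0.08). Members higher were 2 in edgeR, 3 with the stricter filter (Tyk2 was gained), 4 with upper-quartile factors (Tyk2 and Socs4 were gained) and 6 with DESeq2 (Tyk2, Socs4, Il10rb and Osmr, whose reads all lie in Runx3 +/WRPW library 2), where Il4ra was also called lower. Genes called in all were 1855, against 3427 with DESeq2 and 1079 without a filter; the share higher among them was 46.0%, and 51.0% with upper-quartile factors. The median log2 difference was 0.02 over the genes tested in edgeR and 0.70 without a filter. With DESeq2 it was 0.71 over every gene with a read, including genes given no adjusted p. In the latter 2, genes counted in Runx3 +/WRPW library 2 alone entered. Leaving out each library in turn gave 277 to 1431 genes called, 0 to 2 members higher and 1 to 10 lower, with the lowest values without Runx3 +/+ library 2. No called member changed sign under any of these alternatives; members without a call did, among them Lifr with limma-voom and without Runx3 +/WRPW library 2.

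The genotypes share only replicate numbers 1 and 2, which the labels do not tie to a litter or day, so the numbers were not taken as pairs. Deviations of same-numbered libraries from their group mean correlated at -0.0332 and 0.0112. With 2 Runx3 +/+ libraries, their deviations are equal in size and opposite in sign, so these values cannot decide whether libraries were paired. With a replicate block, 754 genes were called, and 2 members were higher and 5 lower. Il2rg, Il27ra, Ifnar1 and Ifngr2 did not pass (edgeR adjusted p = 0.0702, 0.0614, 0.114 and 0.0531). Runx3 +/WRPW library 3 is alone in its block, so that fit takes the genotype difference from the other libraries and has less left to estimate spread. The part of this in the lost calls was not tested. Of the 6 members with few reads, 3 could not be tested and Lifr, Socs2 and Il1r1 had intervals several log2 units wide; the part of depth in this was not tested, and the library that held most of their reads was the shallowest.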
